A study of Mus musculus with 5 samples.

Results

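The genes of distal calcium handling, with Klotho and the vitamin D receptor, were followed through the cell types of the adult mouse kidney. They are *Calb1*, *S100g*, *Trpv5*, *Slc8a1*, *Atp2b1*, *Atp2b4*, *Kl* and *Vdr*, 8 of the 17389 genes counted, listed for their function. Single-cell RNA sequencing of droplet-captured cells, which counts each captured RNA molecule once by its unique molecular identifier (UMI), gave 14197 cells in 5 libraries. The mice were adult littermates of the *FVB/Ant* strain. KO female, KO male and KO mix hold cells of *Fame* knockout mice, in which CRISPR/Cas9 placed a stop after the start codon of a gene listed in the count table as *ccdc198*. WT female and WT mix hold wild type cells. Mix stands for pooled male and female mice, no source used here states how many mice a library holds, and wild type has no library of males alone. The annotation of the authors puts KO female, KO male and WT female in sequencing run 2 and both mix libraries in run 3, so the run and the pooling of sexes cannot be told apart.

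Cells of the distal convoluted tubule and the connecting tubule take calcium out of the tubular fluid against its gradient. Calcium enters through the apical channel TRPV5, is carried across the cell by the calcium-binding proteins calbindin-D28k (*Calb1*) and calbindin-D9k (*S100g*), and leaves on the blood side through the sodium-calcium exchanger NCX1 (*Slc8a1*) and the plasma membrane calcium pumps PMCA1 (*Atp2b1*) and PMCA4 (*Atp2b4*). Klotho (*Kl*) is the co-receptor of the phosphate-regulating hormone FGF23. The vitamin D receptor (*Vdr*) is the nuclear receptor through which active vitamin D raises the transcription of several of these genes.

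The promoters of 7 of the 8 genes were found in RefSeq for GRCm38.p6, each read from 250 bases before the annotated start to 50 bases after it, and all but *Calb1* matched. Those of *S100g*, *Trpv5*, *Kl* and *Vdr* are shown because the molecules of the first pair lay mostly in distal cells and those of the second pair also in the proximal tubule. Capitals mark matches, on either strand, to the TATA box (TATAAA), to hexamers bound by nuclear receptors such as VDR, written as GGTTCA and, in a second form, as AGGTCA, and to the GC box (GGGCGG).
*S100g*, chrX:162964550-162964849, minus strand: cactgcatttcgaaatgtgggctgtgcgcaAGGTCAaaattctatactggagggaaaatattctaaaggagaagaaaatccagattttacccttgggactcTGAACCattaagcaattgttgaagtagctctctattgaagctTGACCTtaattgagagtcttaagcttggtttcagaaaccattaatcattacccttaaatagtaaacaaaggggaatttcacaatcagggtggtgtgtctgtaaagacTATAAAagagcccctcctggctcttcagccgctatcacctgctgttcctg
*Trpv5*, chr6:41680674-41680973, minus strand: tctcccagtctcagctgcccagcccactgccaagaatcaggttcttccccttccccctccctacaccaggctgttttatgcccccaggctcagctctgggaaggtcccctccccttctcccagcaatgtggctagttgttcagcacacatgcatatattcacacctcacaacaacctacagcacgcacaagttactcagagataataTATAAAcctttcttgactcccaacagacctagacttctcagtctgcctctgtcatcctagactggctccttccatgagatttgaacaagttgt
*Kl*, chr5:150952357-150952656, plus strand: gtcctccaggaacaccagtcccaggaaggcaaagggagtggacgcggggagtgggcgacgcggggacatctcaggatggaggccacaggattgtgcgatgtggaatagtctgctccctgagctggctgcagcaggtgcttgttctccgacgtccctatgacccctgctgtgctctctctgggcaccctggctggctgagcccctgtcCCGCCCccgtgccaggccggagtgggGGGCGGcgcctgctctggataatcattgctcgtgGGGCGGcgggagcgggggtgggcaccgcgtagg
*Vdr*, chr15:97908247-97908546, minus strand: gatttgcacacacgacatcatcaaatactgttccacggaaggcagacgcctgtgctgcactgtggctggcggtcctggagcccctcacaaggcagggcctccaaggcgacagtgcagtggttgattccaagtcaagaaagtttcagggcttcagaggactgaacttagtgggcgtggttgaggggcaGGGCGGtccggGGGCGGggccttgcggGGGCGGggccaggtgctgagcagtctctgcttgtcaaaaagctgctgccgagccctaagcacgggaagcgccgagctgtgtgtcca

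The window of *S100g* held TATAAA at the annotated start, the motif GGTTCA at position -149 and the motif AGGTCA at positions -220 and -107, counted from the annotated start as 0. The window of *Trpv5* held TATAAA at position -43 and none of the other motifs. GGGCGG was found at 3 places each in the windows of *Kl* and *Vdr* and at 4 places in the first of 2 windows of *Atp2b1*, and at none in those of *S100g*, *Trpv5*, *Slc8a1* and *Atp2b4*. The dinucleotide CpG occurred 54 times in the first window of *Atp2b1*, 19 times in that of *Kl* and 15 times in that of *Vdr*, against 9 in *Slc8a1*, 4 in *Atp2b4*, 3 in *S100g* and 1 in *Trpv5*. Among 32851 mouse promoters of the same length, 13.6% held a match to TATAAA, 10.4% one to the motif GGTTCA, 16.3% one to the motif AGGTCA and 35.7% one to GGGCGG. A match describes the letters alone. The windows of *Vdr* and *Atp2b4* (chr1:133753698-133753997) lie wholly inside the annotated spans of their genes, at a start other than the outermost. Their motif and CpG counts describe those starts only.

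By the GRCm38 annotation, *Calb1* lies at chr4:15881264-15908064 and *Kl* at chr5:150952607-150993817 on the plus strand, and *Atp2b1* at chr10:98914406-99026143, also on the plus strand. *S100g* (chrX:162961992-162964599), *Trpv5* (chr6:41652173-41680769), *Slc8a1* (chr17:81373105-81738377), *Atp2b4* (chr1:133699457-133801041) and *Vdr* (chr15:97854425-97910630) are on the minus strand. *S100g* overlaps *Ctps2* on the opposite strand, a gene that was also counted. The paper names its capture chemistry and the counting program Cell Ranger but no separate strand setting. How reads of the pair were assigned was not examined here.

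The libraries held 1794 to 3567 cells and 9791091 to 15950717 UMIs, 60492486 UMIs in all. Of 14172 distinct cell barcodes, 25 occurred in more than 1 library. The median share of mitochondrial UMIs per cell was 28.4 and 29.4% in the libraries of run 3, against 12.6 to 15.3% in those of run 2. The transcript of the targeted gene had 148, 127 and 83.1 CPM (UMIs of the gene per total UMIs, scaled to a common total) in KO female, KO male and KO mix, against 196 and 71.5 CPM in WT female and WT mix. These ranges overlap, and since an inserted stop need not remove a transcript, the level does not check the labels. Levels are given as CPM of all raw UMIs in a library and cell type, for libraries with at least 20 cells of the type, which left 18 of 19 types. Cells of a library are not replicates, so the spread is that between libraries.

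Of the named types, the distal convoluted tubule (DCT, 554 cells) had its defining sodium-chloride cotransporter *Slc12a3* at 3642 to 6851 CPM, collecting duct principal cells (CD PC, 445 cells) the water channel *Aqp2* at 1447 to 7401 CPM, and the collecting duct intercalated and transitional cells (CD IC/CD Trans, 354 cells) the proton pump subunit *Atp6v1g3* at 2737 to 7464 CPM. No type is labelled connecting tubule. Its markers were spread over the 3 distal types, with the kallikrein *Klk1* at 5974 to 18629.7 CPM in DCT and the sodium channel subunit *Scnn1g* at 245 to 360.0 CPM in CD PC, 135 to 230 CPM in CD IC/CD Trans and 12.6 to 107 CPM in DCT. Levels across types are a description without a test, because the types were clustered on these cells.

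*Calb1* was a gene of the distal types. In DCT it had 3439, 2929 and 4594 CPM in KO female, KO male and KO mix, against 4241 and 5317 CPM in WT female and WT mix. In CD PC it had 1248, 1136 and 610.3 CPM in the KO libraries in the same order, against 862 and 1311 CPM in the WT libraries. In CD IC/CD Trans the levels were 1149, 1335 and 725 CPM in the KO libraries, against 672 and 564 CPM in the WT libraries. The range in DCT lay above that in CD PC, with DCT higher in 5 of 5 libraries, whereas CD PC and CD IC/CD Trans did not differ beyond their spread. The 3 distal types made up 9.53% of the cells and 88.9% of the 16380 *Calb1* UMIs.

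Droplets also catch free RNA, and red blood cells, which should not make *Calb1*, gave its level at 124, 207 and 184 CPM in the KO libraries and 117 CPM in WT female. In the proximal convoluted (PTc) and proximal straight (PTs) tubule and the loop of Henle (LOH), *Calb1* was below the red blood cell value in 4 of 4 libraries, so these levels are read as background.

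*S100g* had a level of 15173, 11662 and 11978 CPM in DCT of KO female, KO male and KO mix, against 19184 and 14060.5 CPM in WT female and WT mix. In CD PC the values were 24247, 21029 and 3731 CPM in the KO libraries, against 10515 and 4580.0 CPM in the WT libraries. CD IC/CD Trans had 21133, 32446 and 4900.2 CPM in the KO libraries, against 17921 and 3999 CPM in the WT libraries. The 3 distal types overlapped in their ranges and took 84.8% of 120182 UMIs, and both mix libraries were the lowest in CD PC and in CD IC/CD Trans. Red blood cells held 1347, 2358 and 636 CPM in the KO libraries and 1205 CPM in WT female, above every library's level in PTc, PTs and LOH. With a UMI of *S100g* in 34.1 to 88.8% of red blood cells and 34.3 to 74.1% of PTc cells (median depth 1356 to 2119 and 3857 to 5786 UMIs per cell) and in 24.4 to 71.9% and 10.1 to 26.7% after thinning to 1000 UMIs, detection of this gene in PTc is read as background.

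*Trpv5* was rare, with 237 UMIs in all, of which 91.1% were in the 3 distal types. DCT had 18.8, 16.2 and 92.1 CPM in KO female, KO male and KO mix, against 20.6 and 63.0 CPM in WT female and WT mix. In CD PC the levels were 35.6, 19.998 and 25.8 CPM in the KO libraries, against 13.5 and 52.2 CPM in the WT libraries, and in CD IC/CD Trans 23.2, 49.1 and 36.5 CPM, against 32.5 and 46.3 CPM. The order of the 3 types is not resolved, since their ranges overlap. LOH and PTc held 1 UMI each, and vascular smooth muscle cells (VSMC) 0 UMIs, which allows up to 5.86 CPM. Its close relative *Trpv6*, the other epithelial calcium channel, had 18 UMIs in DCT, 16 in CD PC and 4 in CD IC/CD Trans.

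*Slc8a1* reached 1326, 1207 and 2165 CPM in DCT of KO female, KO male and KO mix, against 1683 and 2136 CPM in WT female and WT mix. In CD IC/CD Trans it had 792, 1114 and 515 CPM in the KO libraries, against 487 and 378 CPM in the WT libraries, and in CD PC 907, 656 and 260.0 CPM, against 362 and 371 CPM. DCT was the highest in 5 of 5 libraries, with a range apart from that of CD IC/CD Trans, and the other distal types overlapped. The exchanger was also found at 116 to 263 CPM in VSMC and at 229 and 245 CPM in the glomerular cells annotated GL sc, which only KO mix and WT mix held in number. Its level in PTc was 2.59 to 8.92 CPM.

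The 2 calcium pumps differed in distribution. *Atp2b1* was broad, highest in VSMC with 282, 209 and 333 CPM in the KO libraries and 369 and 287 CPM in the WT libraries, and its neighbours in the order (GL sc, T cells/NK cells, GL podo, GL endo) did not lie apart from one another. DCT held 134, 119 and 101 CPM in the KO libraries and 146 and 145 CPM in the WT libraries, and the lowest type was the proximal subcluster PT1 with 19.3 to 27.6 CPM. The distal types took 12.1% of its 5789 UMIs, beside 11.5% of all UMIs. *Atp2b4* was at 70.6, 176.6 and 104 CPM in VSMC of the KO libraries and 147 and 112 CPM of the WT libraries, and at 81.5, 59.3 and 82.9 CPM in DCT of the KO libraries and 100.5 and 94.5 CPM of the WT libraries. VSMC and DCT overlapped, both were above CD IC/CD Trans (11.6 to 39.9 CPM), and PTc had 2 UMIs in all. DCT, CD PC and CD IC/CD Trans together took 51.9% of the 603 UMIs of *Atp2b4*.

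*Kl* and *Vdr* were expressed both distally and in the proximal tubule. The level of *Kl* in DCT was 1145, 967 and 1431 CPM in KO female, KO male and KO mix, against 1151 and 1216 CPM in WT female and WT mix. Next came CD IC/CD Trans (247 to 651 CPM), CD PC (260.0 to 523 CPM), PTc (233 to 422 CPM) and PTs (219 to 299 CPM). DCT stood apart from all of these, and the ranges of the following types overlapped. For *Vdr*, DCT had 319, 232 and 221 CPM in the KO libraries, against 299 and 340.2 CPM in the WT libraries, followed by CD IC/CD Trans with 139 to 166 CPM and PTc with 43.3 to 183 CPM. In PTc, *Vdr* was at 43.3 and 58.9 CPM in the libraries of run 3, KO mix and WT mix, against 163, 152 and 183 CPM in KO female, KO male and WT female of run 2.

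Proximal tubule cells, 60.1% of all cells, carried most molecules of both genes, 61.8% of 17104 UMIs for *Kl* and 67.3% of 6435 UMIs for *Vdr*, beside 65.7% of all UMIs. The levels in PTc were above those in red blood cells in 4 of 4 libraries, by 2.35 to 2.75 times for *Kl* and by 2.23 to 4.61 times for *Vdr*, and above those in glomerular endothelium in 5 of 5 libraries. *Atp2b1* in PTc was also above red blood cells in 4 of 4 libraries (1.23 to 4.64 times) but below glomerular endothelium in 5 of 5.

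**Figure D1:**
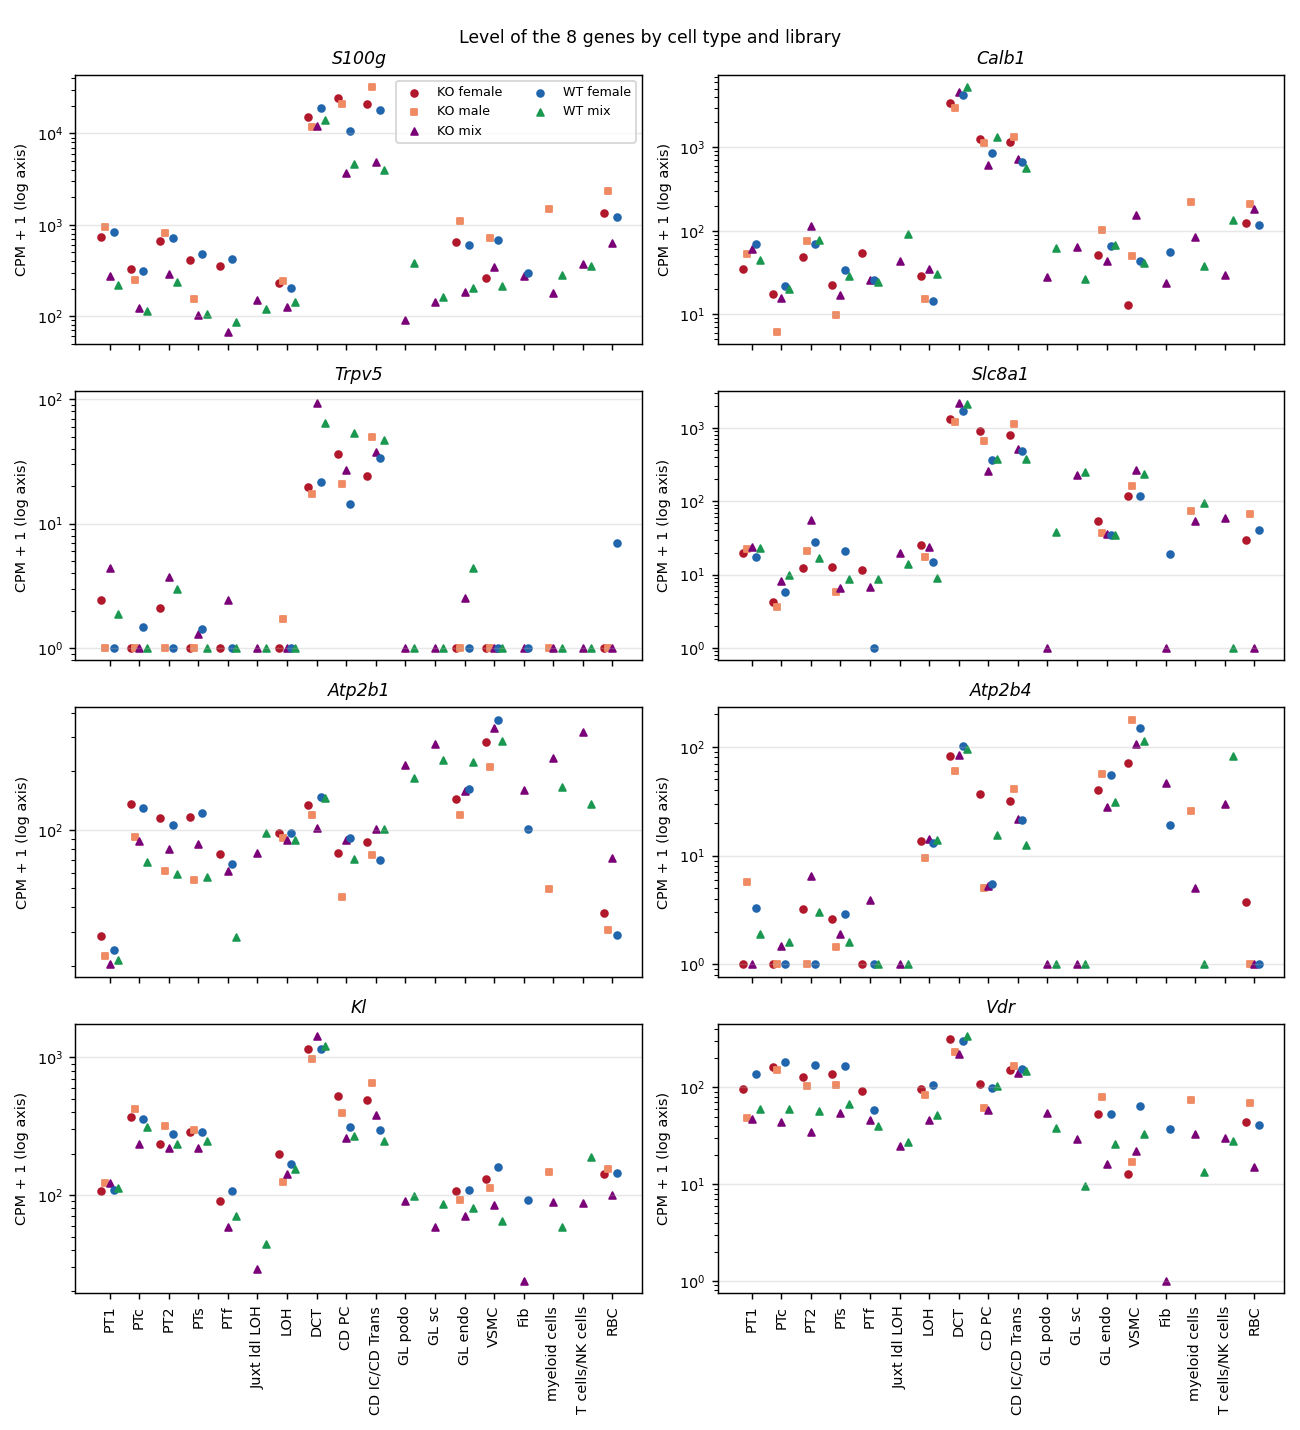
Level of each gene, as CPM + 1 on a log axis, in 18 cell types, with 1 point per library (KO libraries left of WT libraries, triangles for the mix libraries of run 3). *Calb1*, *S100g*, *Trpv5* and *Slc8a1* peak in DCT, CD PC and CD IC/CD Trans, *Kl* and *Vdr* also stand above the red blood cells (RBC) in the proximal types PTc and PTs, and *Atp2b1* is highest in VSMC.

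Over the 18 types, the mean log2(CPM + 1) profile of each gene was set beside those of 8286 genes with at least 500 UMIs, as a description. The types share libraries and free RNA, and the correlations carry no test. Nearest to *Calb1* were *S100g* (Pearson r = 0.946), the muscle-type phosphoglycerate mutase *Pgam2* (0.892) and *Klk1* (0.887). Nearest to *S100g* were the ammonia transporter *Rhcg* (0.951), *Calb1* (0.946) and the sodium channel subunit *Scnn1b* (0.925). *Trpv5* was closest to the sodium channel subunit *Scnn1g* (0.967), *Rhcg* (0.966) and *Scnn1b* (0.958), genes of the connecting tubule and collecting duct.

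*Slc8a1* was closest to the caveolin gene *Cav2* (0.870), *Ccdc160* (0.837) and *Calb1* (0.803), and *Atp2b4* to *Cav1* (0.760), *Cd9* (0.747) and *Arl6ip5* (0.736). *Kl* had *Vdr* as its nearest gene (0.868), followed by the nephron transcription factor *Lhx1* (0.816) and *Sgms2* (0.780). *Vdr* was closest to *Pet100* (0.905), *Apoo* (0.899) and *Mthfd1* (0.889), the first a respiratory chain assembly factor and the others mitochondrial or metabolic genes. *Atp2b1* was closest to *Serinc1* (0.897), *Nktr* (0.884) and *Map4* (0.880).

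Within a type, several of the genes were found together in the same cells, and *Atp2b1* was not examined this way. Each cell was thinned to 1000 UMIs, so that depth is equal. In DCT, a UMI of *Slc8a1* was seen in 53.8, 64.8 and 57.4% of cells with a *Calb1* UMI in KO female, KO male and KO mix and in 61.5 and 71.7% in WT female and WT mix. Among DCT cells without a *Calb1* UMI the share was 16.7, 11.4 and 17.2% in the KO libraries and 14.3 and 9.09% in the WT libraries. The exchanger was thus more often seen with *Calb1* in 5 of 5 libraries, with no overlap between the shares.

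*S100g* was seen in 73.1 to 83.3% of DCT cells with a *Calb1* UMI and 35.7 to 50% of those without, *Kl* in 59.3 to 68.3% and 13.6 to 41.4%, *Vdr* in 20.8 to 30.0% and 6.90 to 16.7%, and *Klk1* in 79.6 to 85.0% and 31.4 to 52.4%, each higher with *Calb1* in 5 of 5 libraries. The DCT markers set beside *Calb1* were mostly less frequent with it, and other DCT markers were not examined this way. The calcium buffer *Pvalb* (parvalbumin) was seen in 43.3 to 77.8% of cells with and 72.4 to 82.9% of cells without a *Calb1* UMI, lower with *Calb1* in 5 of 5 libraries. *Slc12a3* was seen in 63.4 to 79.5% of cells with and 78.6 to 90.9% of cells without a *Calb1* UMI, lower in 4 of 5 libraries and higher in WT female. Split by *Slc8a1*, it was found in 57.8 to 75.8% of DCT cells with and 76.1 to 96.0% of those without an *Slc8a1* UMI, lower in 5 of 5. The pump gene *Atp2b4* was seen in 3.85 to 15.4% of DCT cells with and 0 to 9.09% of those without a *Calb1* UMI. It was higher with *Calb1* in 4 of 5 libraries and lower in KO male. In DCT, 16 of 384 cells with a *Calb1* UMI also had one of *Trpv5*, against 0 of 170 cells without one. Pooled over libraries, that 0 allows up to 1.76% of cells with a UMI at this depth, and does not limit the cells that express so rare a transcript.

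In both collecting duct types *S100g*, *Slc8a1* and *Kl* were more frequent beside *Calb1* in 5 of 5 libraries. *Klk1* was so in 4 of 5 libraries in CD PC and 5 of 5 in CD IC/CD Trans, *Vdr* in 5 of 5 and 4 of 5, and *Pvalb* was higher in 2 and lower in 2 libraries of each type. In CD PC, *Slc8a1* was found in 30.4 to 50% of cells with a *Calb1* UMI and 4.00 to 22.2% of those without, and *Scnn1g* in 25 to 53.6% and 15.8 to 24.0%, each higher in 5 of 5. The principal cell genes had no common direction there. *Fxyd4* was less frequent with *Calb1* in 5 of 5 libraries (53.1 to 81.1% and 62.5 to 84.4%), *Hsd11b2* was more frequent in 4 of 5, *Aqp2* was higher in 2 and lower in 2, and *Aqp3* was higher in 1 and lower in 3. A UMI of all 4 of *Calb1*, *S100g*, *Slc8a1* and *Kl* was present in 21.3 to 39.0% of DCT cells, 5.26 to 14.1% of CD PC cells and 1.14 to 16.3% of CD IC/CD Trans cells. The share was at most 0.625% in red blood cells and at most 0.592% in PTc. Thinning was done once, and these shares are a description without a test.

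**Figure D2:**
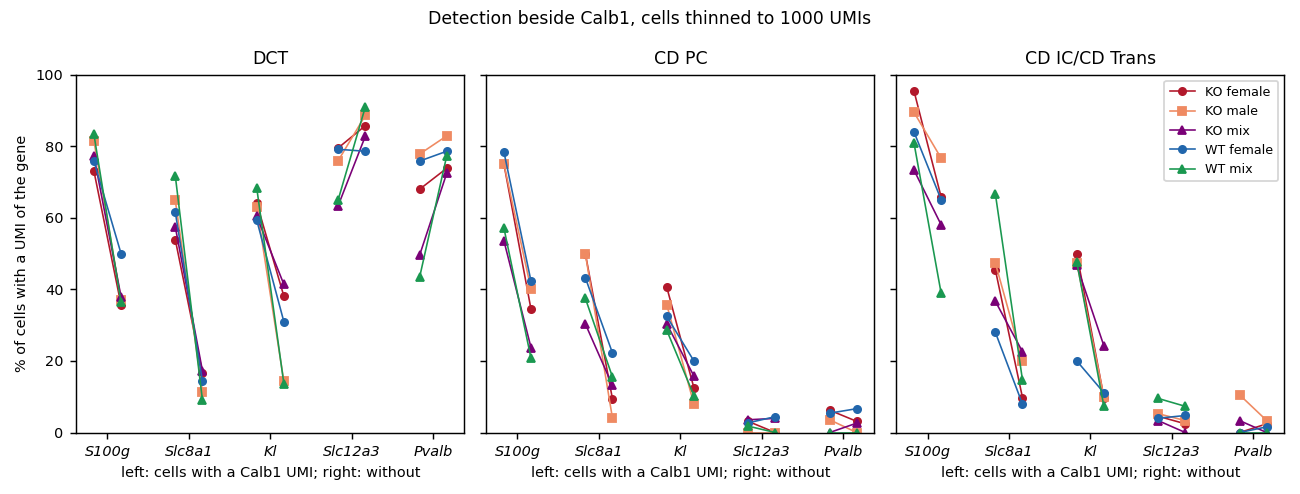
Share of cells with a UMI of each gene (vertical axis, percent) among cells with a *Calb1* UMI (left points) and without one (right points), thinned to 1000 UMIs, with 1 line per library in 3 distal types. In DCT, *S100g*, *Slc8a1* and *Kl* are more frequent beside *Calb1* in 5 of 5 libraries and *Pvalb* less frequent.

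The series asks what loss of *Fame* changes in the kidney. No difference between KO and WT was called for any of the 8 genes. The quasi-likelihood test of edgeR on UMIs summed per library and type, with Benjamini-Hochberg adjustment over all genes of the type, was possible in 11 cell types. Of 88 combinations of gene and type, 70 passed the filter on low counts, 36 with a higher and 34 with a lower estimate in KO, and 0 were called, where 0% of 68554 tests over all genes were called. An unadjusted p under 0.05 was found for 3 of the 70. They were *Kl* in CD IC/CD Trans, where 35 of 5879 genes had such a p, *Slc8a1* in LOH (59 of 8952) and *Calb1* in PTs (12 of 10342). The level of *Calb1* in PTs was read as background above. *Slc8a1* in LOH was above red blood cells in 1 of 4 libraries and above glomerular endothelium in 0 of 5, so it too is not told apart from background. DESeq2 called 0, with 4 at an unadjusted p under 0.05. For the 18 combinations that did not pass the filter, an exact two-sided permutation test was used. With 3 against 2 libraries it cannot go below 0.1, which *Vdr* in VSMC reached with 3 KO libraries below both WT libraries. That rests on 15 UMIs of *Vdr* in VSMC, where it was above red blood cells in 2 of 4 libraries. The 4 combinations in the female-specific proximal cells (PTf) had 2 against 2 libraries, for which the smallest possible p is higher.

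In DCT the estimates were small beside their errors. The log2 fold change of KO over WT was -0.42 ± 0.42 (SE) for *Calb1*, with a 95% interval of -1.35 to 0.50, -0.39 ± 0.45 for *S100g*, -0.31 ± 0.40 for *Slc8a1* and 0.18 ± 0.95 for *Trpv5*. It was -0.33 ± 0.28 for *Atp2b1*, -0.42 ± 0.30 for *Atp2b4*, -0.03 ± 0.35 for *Kl* and -0.34 ± 0.29 for *Vdr*. All 3 KO libraries were below both WT libraries for *Atp2b4* and *Atp2b1*, with an exact two-sided permutation p of 0.1 and 0.2. How many of all genes lay apart in this way was not counted. In DCT 0 of 6123 genes were called, 34 at an unadjusted p under 0.05 by edgeR and 7 by DESeq2, so the intervals give the range of change that remained possible.

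In CD PC, *S100g* had a log2 fold change of 1.17 ± 0.85 (SE), *Slc8a1* 0.79 ± 0.54, *Kl* 0.48 ± 0.42 and *Calb1* -0.05 ± 0.45. The female and the mix pair of libraries pointed different ways there. The mix pair also differed in its shares of female and male cells, given below. *S100g* in KO was 2.31 times its WT level in the female pair and 0.815 times in the mix pair, and *Calb1* 1.45 and 0.466 times.

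In CD IC/CD Trans the libraries of the 2 genotypes lay apart for some members, and how many of all genes did so was not counted. Over the 11 types, they lay apart in 12 of the 88 combinations of member and type. *Calb1*, *Slc8a1*, *Atp2b4* and *Kl* were each higher in all 3 KO libraries than in both WT libraries, each with an exact two-sided permutation p of 0.2. Their log2 fold changes were 0.89 ± 0.42, 0.999 ± 0.45, 0.85 ± 0.50 and 0.997 ± 0.39 (SE), with an adjusted p of 0.9998 each by edgeR. KO over WT was 1.71 in the female pair and 1.29 in the mix pair for *Calb1*, 1.63 and 1.36 for *Slc8a1*, 1.67 and 1.53 for *Kl* and 1.18 and 1.23 for *S100g*. With the sex composition of the library as a block, *Calb1* (log2 fold change 0.65, adjusted p = 0.0113), *Kl* (0.74, 0.0114), *Slc8a1* (0.65, 0.0114) and *S100g* (0.31, 0.0115) passed the threshold, 4 of 8 members where 0.119% of 5879 genes did. That fit has 1 residual degree of freedom and does not use KO male. Its mix pair shares a label but not a sex composition, so genotype is not separated from sex there. By *Xist* and Y-linked genes, 40.5% of cells in KO mix were classed as female and 11.9% as male. In WT mix these shares were 11.3 and 23.9%. With the run as a block, which uses all 5 libraries, none passed, with an adjusted p of 0.410 for *Calb1*, 0.348 for *Kl*, 0.758 for *Slc8a1* and 0.9996 for *S100g*. The difference of the KO effect between DCT and CD IC/CD Trans was not called for any member (0 of 5396 genes, 126 at an unadjusted p under 0.05), nor between DCT and CD PC (3 of 4606 genes).

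**Figure D3:**
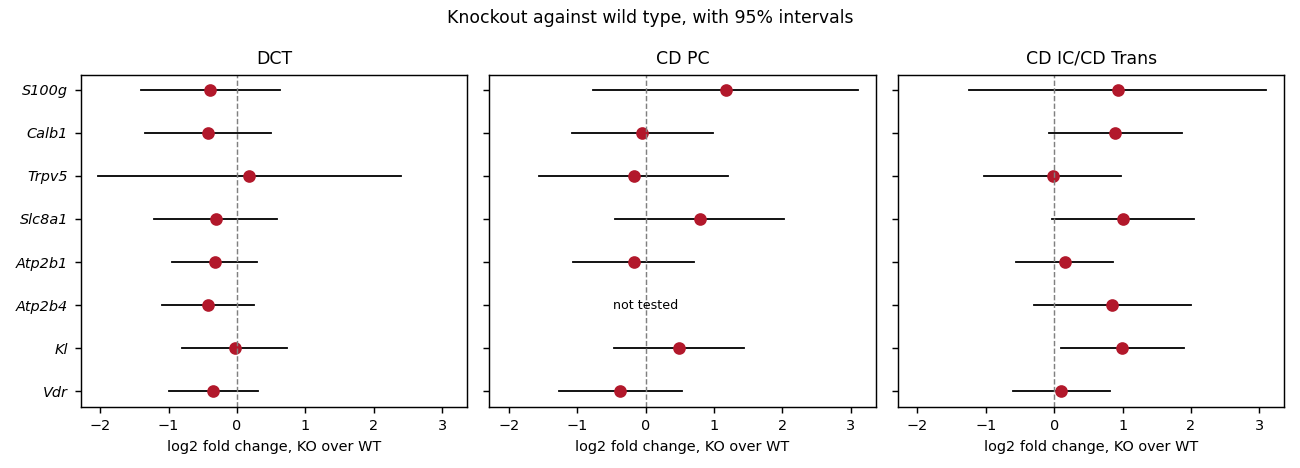
Log2 fold change of KO over WT (horizontal axis) for the 8 genes in DCT, CD PC and CD IC/CD Trans, with 95% intervals of the edgeR fit. In DCT every interval includes 0, and *Kl* in CD IC/CD Trans is the member whose interval lies above 0 before adjustment over genes.

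The other genes of calcium transport, 51 in 6 lists, of which 46 were in the count table, had no call in any of the 11 types. In DCT 25 could be tested, 16 with a positive estimate. The medians were -0.07 (log2) over 7 genes of apical entry and its partners, 0.08 over 5 buffers, 0.11 over 3 genes of the calcium stores, 0.16 over 8 genes of hormones and sensing and 0.69 over 2 claudins, beside 0.01 over all genes tested. The genes highest in DCT included *Klk1* (-0.28 ± 0.57 SE), the kinases *Wnk1* (-0.07 ± 0.49) and *Wnk4* (-0.22 ± 0.36), the TRPV5 partner *S100a10* (0.30 ± 0.51), *Pvalb* (0.39 ± 0.55), the calmodulin gene *Calm2* (0.02 ± 0.31) and *Calr* (0.08 ± 0.32), which encodes the store buffer calreticulin. *Itpr1* (0.16 ± 0.30) and *Itpr2* (-0.28 ± 0.30) encode calcium release channels of the stores and *Atp2a2* (0.11 ± 0.30) the store pump. The parathyroid hormone receptor *Pth1r* had -0.28 ± 0.45, the FGF23 receptor partner of Klotho *Fgfr1* 0.01 ± 0.58, *Pdia3* 0.32 ± 0.30, the endocytic receptor *Lrp2* 0.35 ± 0.38 and the claudins *Cldn10* 1.36 ± 0.47 and *Cldn2* 0.01 ± 0.57. Of these only *Cldn10* had an unadjusted p under 0.05. Of the other pumps and exchangers, *Atp2b2* and *Slc8b1* had 15 and 16 UMIs in DCT and were not tested.

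*S100g* and other members differed between the sequencing runs. This comparison was chosen after seeing the data, with genotype in the edgeR model, 2 libraries of run 3 against 3 of run 2. In CD PC, *S100g* averaged 4155 ± 601 CPM in run 3 (SD, n = 2) and 18597 ± 7182 CPM in run 2 (SD, n = 3), a log2 fold change of -2.13 ± 0.32 (SE, adjusted p = 0.000429 by edgeR), and in CD IC/CD Trans 4450 ± 637 and 23833 ± 7630 CPM, -2.46 ± 0.21 (adjusted p = 2.5e-05). In DCT *S100g* averaged 13019 ± 1473 CPM in run 3 and 15340 ± 3764 CPM in run 2, and -0.12 ± 0.16 was not called (95% interval -0.44 to 0.20). The 2 run 3 libraries lay below all run 2 libraries in both collecting duct types and overlapped them in DCT. Among cells classed as female by *Xist* and Y-linked genes, *S100g* in CD PC was 3117 and 2975 CPM in KO mix and WT mix, against 27091 and 8609 CPM in KO female and WT female. With cells of at most 25% mitochondrial UMIs the log2 fold change was -2.65 in CD PC and -2.48 in CD IC/CD Trans. Without KO male the call in CD PC was lost (-2.12, adjusted p = 0.166), and without KO mix the difference there was -1.33 (adjusted p = 0.0352). Levels of *S100g* in red blood cells were also lowest in run 3, at 636 CPM in KO mix, against 1205 to 2358 CPM in run 2.

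Other members were called higher in run 3 in DCT and lower in the collecting duct types. In DCT 4 of 8 members were called, where 16.8% of 6123 genes were. All 4 were higher in run 3, *Trpv5* by a log2 fold change of 2.27 ± 0.36 (SE, adjusted p = 8.4e-09), *Slc8a1* by 0.76 ± 0.14 (1.3e-06), *Calb1* by 0.61 ± 0.15 (0.000686) and *Kl* by 0.45 ± 0.14 (0.0108). In CD PC 2 of the 7 members tested were called, where 22.9% of 5172 genes were, namely *S100g* and *Kl* (-0.71 ± 0.21, 0.0158), both lower in run 3. In CD IC/CD Trans 4 of 8 were called, where 24.4% of 5879 genes were, all lower in run 3. Besides *S100g* these were *Calb1* (-0.69 ± 0.15, 0.00308), *Slc8a1* (-0.80 ± 0.18, 0.00612) and *Kl* (-0.59 ± 0.17, 0.0168), for which the libraries of the runs overlapped. Once WT female or WT mix was left out, the genotype term took up the remaining WT library. The run effect then compared KO mix alone with KO female and KO male. In CD PC it was -1.15 for *Calb1* and -1.78 and -1.77 for *Slc8a1*. *Atp2b1*, *Atp2b4* and *Vdr* were called in none of the 3 types. The difference of the run effect between DCT and CD PC was called for *Kl*, where 1.95% of 4606 genes were called, and that between DCT and CD IC/CD Trans for *Trpv5*, where 1.48% of 5396 genes were. Neither fit had a term for genotype by type.

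Several of these calls rest on KO mix. Without it, WT mix alone stood for run 3 and was assumed to vary like the other libraries. The log2 fold change in DCT was then 1.74 for *Trpv5* (adjusted p = 0.103 by edgeR), 0.48 for *Slc8a1* (0.234), 0.46 for *Calb1* (0.328) and 0.21 for *Kl* (0.685). In CD PC it was -0.34 for *Kl* (0.622), and in CD IC/CD Trans -0.41 for *Calb1* (0.350), -0.52 for *Slc8a1* (0.297) and -0.41 for *Kl* (0.449). Each kept its direction with a smaller estimate, and the smaller effect and the loss of a library cannot be told apart. *Kl* was also not called without KO male in DCT (adjusted p = 0.0639), without WT female in CD IC/CD Trans (0.0767) or by DESeq2 in any of the 3 types (0.271 in DCT, 0.175 in CD PC, 0.0851 in CD IC/CD Trans). In DCT of run 3 the median mitochondrial share was 37.8 and 38.5% in KO mix and WT mix, against 13.7 to 18.1% in run 2. With cells of at most 25% mitochondrial UMIs, which left 21 DCT cells of KO mix and too few of WT mix, the estimates in DCT were -0.23 for *Calb1*, -0.24 for *Slc8a1*, -0.40 for *Kl* and 2.01 for *Trpv5*, none of them called, and *S100g* was called lower in run 3 (-0.95, adjusted p = 0.0302).

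Several markers of segments moved with the run in the same types, where 16.8% of 6123 genes were called in DCT. Other markers were compared and their values are not given, so a shift of whole segments is not read from these. In DCT, run 3 was higher for the collecting duct and connecting tubule genes *Aqp2* (166 CPM in run 3 and 10.3 CPM in run 2), *Hsd11b2* (371 and 22.1 CPM), *Scnn1b* (128 and 35.1 CPM) and *Scnn1g* (99.6 and 30.7 CPM), and lower for *Pvalb* (1089.9 and 3373 CPM), *Slc12a3* (4095 and 6141 CPM) and the loop of Henle gene *Umod* (1423 and 2666 CPM), all called by edgeR. In CD PC *Aqp2* averaged 7158 CPM in run 3 and 1518 CPM in run 2. The part of the segment mix, the mitochondrial share and the pooling of sexes in the differences between runs was not tested. In bulk sums of this kind, fewer cells of a kind and less RNA per cell cannot be told apart.

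**Figure D4:**
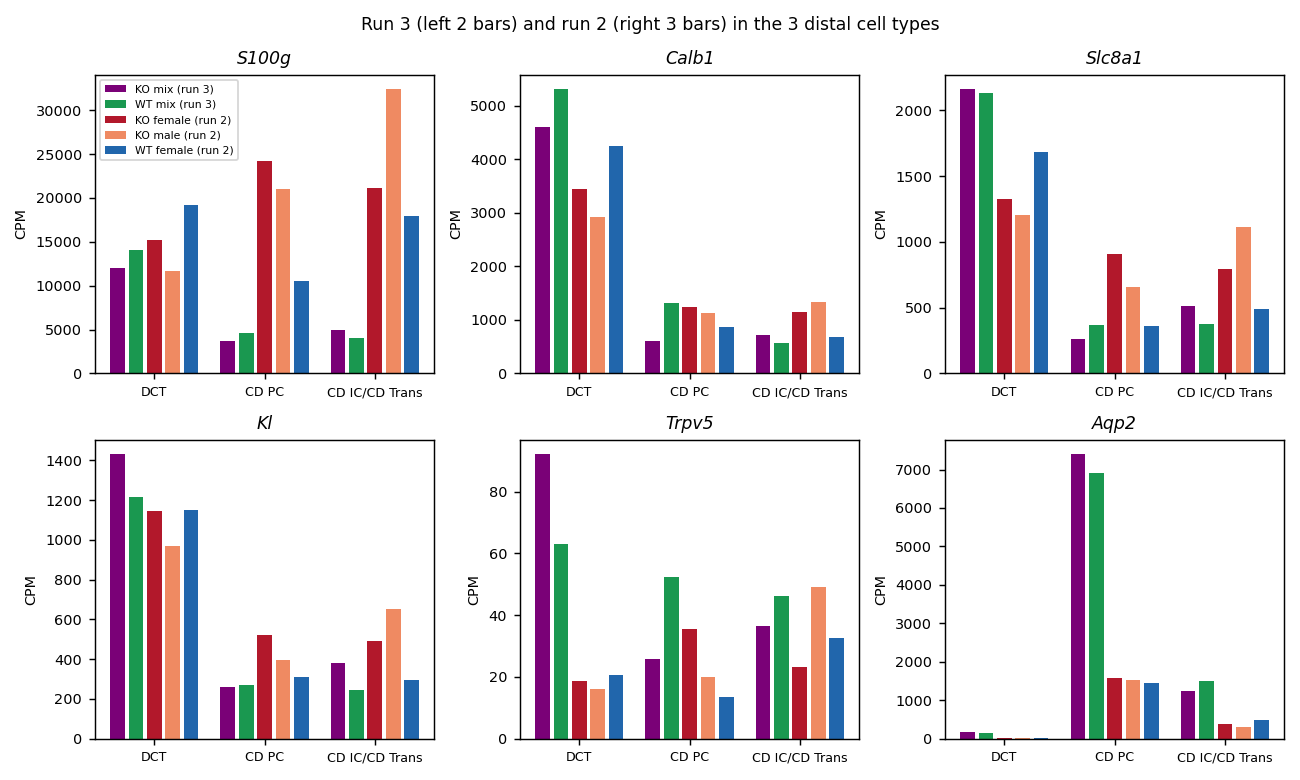
CPM of *S100g*, *Calb1*, *Slc8a1*, *Kl*, *Trpv5* and the marker *Aqp2* in 3 distal types, with 1 bar per library, both run 3 libraries left of the 3 run 2 libraries. *S100g* is lower in both run 3 libraries than in all run 2 libraries in CD PC and CD IC/CD Trans but not in DCT, and *Trpv5* in DCT is higher in run 3.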

How the data were processed

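For the 5 libraries of adult kidney cells, the authors ran Cell Ranger 4.0.0 against mm10 and deposited raw UMI counts per gene and cell. The authors removed cells under 1000 UMIs or over 50% mitochondrial UMIs and genes found in fewer than 3 cells. They also deposited the percent of mitochondrial UMIs, the Scrublet doublet score, run and cell type of each cell, the last assigned with Seurat 3.2.2.9001. Cells were kept whatever their doublet score, except in an alternative with a score of at most 0.2. Of the annotation, 1 column was not used. Counts were summed per library and type with at least 20 cells. A type was tested where each genotype kept 2 libraries, with edgeR 4.0.16 (quasi-likelihood, two-sided, TMM, robust, default filter, Benjamini-Hochberg threshold 0.05). DESeq2 1.42.0 was an alternative. No source states whether libraries came from separate animals, and the p-values then cover only how these libraries vary, which may be technical. Limits given for a count of 0 cover counting error only. The comparison of runs and its interaction terms were chosen after seeing the data. Sequences are from RefSeq. The KO against WT fit without a block was run on simulated counts for DCT and CD PC. The fits with a block, of the runs and of interaction terms were not.

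The members and lists were chosen with earlier results of these data known. Named are all 8 members, the 3 most like genes of each, up to 4 genes of each calcium list highest in DCT, and segment markers, apart from 1 gene that is not reported here. *Rhcg* and the others named by likeness follow that rule. *Trpv6*, *Fxyd4* and *Scnn1g* come from the lists and markers. R 4.3.3 and Python 3.11.15 were used.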

Additional observations from a re-analysis of the deposited data

Results flagged for a closer look

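The difference between run 3 and run 2 was not the same in all distal types for 2 genes, by an interaction term of edgeR with the library as a block, added after seeing the data. The model had no term for genotype by type, so these differences are not adjusted for a KO effect that differs between types. For *Kl*, the log2 fold change of run 3 over run 2 in DCT minus that in CD PC was 1.19 ± 0.21 (SE, adjusted p = 0.00107), where 1.95% of 4606 genes were called. Without KO mix it was 1.06 and no longer called (adjusted p = 0.225).

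For *Trpv5*, the log2 fold change in DCT minus that in CD IC/CD Trans was 2.05 ± 0.49 (SE, adjusted p = 0.0303), where 1.48% of 5396 genes were called. It was not called without KO male (1.76, adjusted p = 0.0715), without KO mix (1.51, 0.561) or without WT female (2.15, 0.108), and it rests on 84 UMIs in DCT and 81 in CD IC/CD Trans. The same differences for *S100g* were 2.19 ± 0.70 against CD PC (adjusted p = 0.403) and 2.43 ± 0.65 against CD IC/CD Trans (0.325), and were not called. Which genes were called depended on WT female. Without it, run 2 held KO libraries alone. As in the main fit, no term held genotype by type, so run and genotype were mixed more closely. The difference against CD PC was then 2.73 for *S100g*, 2.41 for *Slc8a1*, 1.36 for *Calb1* and 2.16 for *Trpv5*. Against CD IC/CD Trans it was 1.84 for *Calb1*, 2.09 for *Slc8a1* and 1.43 for *Kl*. All of these passed the threshold, but with so few libraries and this mixing their p-values are not read. Without KO male the difference for *S100g* against CD IC/CD Trans was called as well (1.98, 0.0472). The part of cell composition in these differences was not tested.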

How the results depend on the processing

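No alternative called a member in DCT or CD PC. Some estimates near 0 changed sign without a call. For *Kl* in DCT the log2 fold change of KO over WT became 0.011 with no filter, 0.030 with at least 10 counts in every library, 0.075 with the sex composition and 0.011 with the run as a block, and it ran between -0.26 and 0.11 with a library left out. In CD PC, *Atp2b1* became 0.051 with the sex composition as a block and 0.11 in female cells (left out: -0.40 to 0.11), *Trpv5* 0.11 with cells of at least 2000 UMIs and 0.51 in female cells (left out: -0.83 to 0.95), and *Calb1* 0.26 in female cells (left out: -0.25 to 0.21). *Trpv5* in DCT ran between -0.89 and 0.85 with a library left out. With the sex composition as a block, 1 gene was called in DCT and 4 members over all types, all in CD IC/CD Trans. Sex composition as labelled served as the replicate block, since the libraries share that label and no numbers of paired animals. KO mix and WT mix differed in their shares of female and male cells, as given above. Deviations from the genotype means correlated over genes by 0.395 (female) and 0.457 (mix) in DCT and by 0.399 and 0.655 in CD PC. With 2 WT libraries, their deviations mirror each other, so the female and mix values are not separate. The female and mix libraries also differ in run, so these values cannot tell a pairing by sex from the run. The causes were not tested. The female-cell fit could not be made in DCT.

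Relative to UMIs not from mitochondrial DNA, levels in DCT were 5679 for *Calb1*, 2372 for *Slc8a1*, 1620 for *Kl* and 381 for *Vdr*, and *Vdr* minus red blood cells was 227 CPM. For run 3 over run 2 in DCT, cells of at most 25% mitochondrial UMIs gave -0.23 for *Calb1*, -0.24 for *Slc8a1* and -0.40 for *Kl*, and *S100g* became 0.17 with cells of at least 2000 UMIs (left out: -0.31 to 0.012). Where a run kept 1 library, that library was assumed to vary like the others. *Trpv5* had 84 UMIs in DCT, which limits its precision.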
